A study of Mus musculus with 4 samples.

Results

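Among the alleles of Cas9-cut loci sequenced in mESCs (mouse embryonic stem cells), those with 2 or more separate deletions in the same read are described here. They were taken from the allele tables of all 4 libraries as rows with at least 2 internal gaps in the read and none in the reference, gaps at the ends of the alignment being ignored. This gave 9225 of 76510 alleles (12.1%) and 31134 of 1636791 aligned reads (1.90%). Alleles with 1 deletion and no insertion numbered 44750 and held 1132151 reads (69.2%).

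The cells were E14 mESCs of the 129/Ola strain, a male line, grown without feeders. Every library came from cells that were given CRISPR plasmids by lipofection and selected with puromycin or GFP, and the libraries differ in the target site of the guide, Site 7 or Site 9, with 2 replicates each. No untreated cells were analysed here, and nothing in the labels says whether replicates were separate transfections, so p-values and SDs measure the spread between these libraries only. Site 7 was amplified from chr16:92520087-92520332 of mm9, with the cut between 92520184 and 92520185 in an intron of Clic6 (plus strand). Site 9 was amplified from chr6:92370046-92370253, with the cut between 92370121 and 92370122 in an intron of Prickle2 (minus strand). The cut lay 15 bp from a coding exon that spans 92370137 to 92370340. The libraries held 380601 to 447620 aligned reads. Alleles seen in a single read were counted unless a minimum is named. A count of 3 reads, which was 0.000670% to 0.000788% of a library, serves below as the upper limit where a count was 0. Intervals given for a single library are 95% Wilson intervals, which take account of counting error alone, as the reads are PCR copies that no molecular identifiers tell apart.

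Cas9 makes a double-strand break, and cells rejoin the ends by non-homologous end joining, which often loses or adds a few bases, or by joining at short repeats, which removes the bases between them. Either route is usually pictured as leaving a single junction. An aligner, however, only compares letters: where bases are lost and a few new bases are put in, and those new bases happen to match a stretch of the lost sequence, the read can be written as separate deletions around a retained stretch. The same read can then be described either way.

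The 60 bases around each cut are printed below on the plus strand of mm9, because all positions are given relative to them. Capitals mark the base on either side of the cut. The Site 7 window is chr16:92520155-92520214 and the Site 9 window is chr6:92370092-92370151.
Site 7 cut: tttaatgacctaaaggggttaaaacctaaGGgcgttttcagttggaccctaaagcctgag
Site 9 cut: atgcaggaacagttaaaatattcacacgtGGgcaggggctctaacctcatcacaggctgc

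The alleles below are shown because they were found in both libraries of their site and were the most abundant with a short retained stretch. In each reference the deleted bases are in capitals, and in each read the capitals mark all bases between the start of the first deletion and the end of the last. The 2 Site 7 alleles span chr16:92520167-92520196. The Site 9 alleles span chr6:92370110-92370150 for the 12 + 3 bp allele, chr6:92370109-92370142 for the 3 + 5 bp allele and chr6:92370087-92370134 for the 9 + 10 bp allele.
Site 7 reference, 1 + 2 bp: aaggggttaaaaCctaAGggcgttttcagt
Site 7 read, 1 + 2 bp: aaggggttaaaaCTAggcgttttcagt
Site 7 reference, 1 + 1 bp: aaggggttaaaaCctaaGggcgttttcagt
Site 7 read, 1 + 1 bp: aaggggttaaaaCTAAggcgttttcagt
Site 9 reference, 12 + 3 bp: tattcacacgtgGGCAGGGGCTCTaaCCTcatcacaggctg
Site 9 read, 12 + 3 bp: tattcacacgtgAAtatcacaggctg
Site 9 reference, 3 + 5 bp: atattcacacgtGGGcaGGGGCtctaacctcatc
Site 9 read, 3 + 5 bp: atattcacacctCAtataacctcatc
Site 9 reference, 9 + 10 bp: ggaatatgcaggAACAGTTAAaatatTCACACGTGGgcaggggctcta
Site 9 read, 9 + 10 bp: ggaatatccaggAATATgcaggggctcta

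A further set was found in 1 library only and is shown because the bases between the deletions have a copy elsewhere in the amplicon, on the same strand or as the reverse complement. The Site 7 alleles span chr16:92520158-92520219 (9 + 22 bp) and chr16:92520133-92520198 (28 + 8 bp), and the Site 9 allele spans chr6:92370079-92370160 (3 + 20 + 29 bp). Capitals are as above.
Site 7 reference, 9 + 22 bp: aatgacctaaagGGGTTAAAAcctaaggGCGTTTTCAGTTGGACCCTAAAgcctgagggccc
Site 7 read, 9 + 22 bp: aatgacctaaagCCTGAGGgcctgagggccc
Site 7 reference, 28 + 8 bp: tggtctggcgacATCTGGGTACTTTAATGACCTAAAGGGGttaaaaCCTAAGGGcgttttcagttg
Site 7 read, 28 + 8 bp: tggtctggcgacTGAAAAcgttttcagttg
Site 9 reference, 3 + 20 + 29 bp: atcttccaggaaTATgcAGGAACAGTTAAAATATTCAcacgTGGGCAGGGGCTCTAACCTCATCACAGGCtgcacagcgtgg
Site 9 read, 3 + 20 + 29 bp: attttccaggaaGCCACGtgcacagcgtgg

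Alleles with separate deletions were a small part of every library. Values given in pairs below are those of replicates 1 and 2, in that order. Replicate 1 of Site 7 had 8942 such reads (2.25%, 2.20 to 2.30%) and replicate 2 had 10021 (2.44%, 2.39 to 2.49%). Replicate 1 of Site 9 had 6644 (1.48%, 1.45 to 1.52%) and replicate 2 had 5527 (1.45%, 1.41 to 1.49%). The Site 7 values did not overlap with those of Site 9, and the site means, 2.34% ± 0.133 and 1.47% ± 0.0227 (SD, n = 2 each), differed by 0.875 percentage points, more than the spread between replicates. The exact two-sided permutation test gave p = 0.333, the smallest value that 2 libraries against 2 allow, and 0.444 after Benjamini-Hochberg adjustment over the 4 comparisons of the sites. This order depended on the denominator. Among reads with any deletion and no insertion, the share was 2.43% and 2.61% at Site 7 against 2.94% and 2.97% at Site 9, so that the difference, Site 7 minus Site 9, was -0.430 points.

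**Figure D1:**
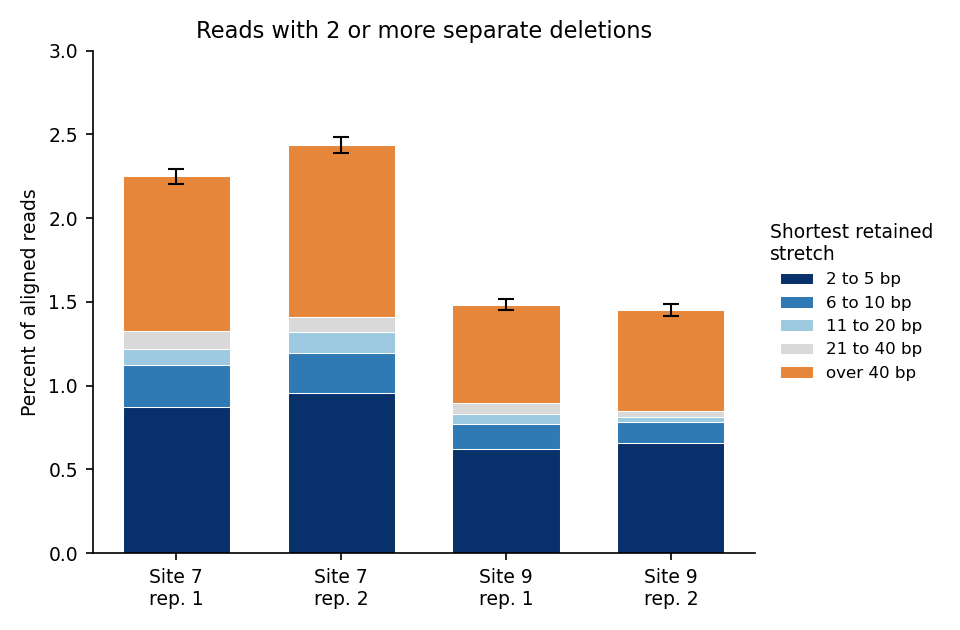
Reads with 2 or more separate deletions as a percent of the aligned reads of each library, split by the length of the shortest retained stretch between deletions, with 95% Wilson intervals of the total as error bars. The stretches of 2 to 5 bp and those over 40 bp made up most of each bar, and the 2 Site 7 bars (2.25% and 2.44%) stood above the 2 Site 9 bars (1.48% and 1.45%).

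Nearly all of these reads carried exactly 2 deletions. They made up 94.3% and 92.0% of the member reads at Site 7, and 91.8% and 95.8% in the Site 9 libraries, while reads with 3 deletions made up 3.60% and 5.48% at Site 7 against 6.79% and 3.26% at Site 9. Reads with 5 or more were found in 127 and 147 reads at Site 7, and 0 and 28 in the Site 9 libraries. At Site 7, 99 of the 103 alleles with 5 or more deletions in replicate 1 and 91 of 104 in replicate 2 were reads whose alignment began or ended outside the usual read range of 223 bp.

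The pairs were mostly a deletion at the cut and a smaller companion. A deletion was counted as reaching the cut when, in any equivalent placement, it removed a base beside it. This was so in 93.6% and 91.3% of member reads at Site 7 against 89.1% and 90.6% at Site 9, and in no read did 2 deletions reach it. The site means of 92.5% ± 1.59 and 89.9% ± 1.04 (SD, n = 2 each) came from libraries that did not overlap, with p = 0.333 in the exact permutation test and 0.444 after adjustment. Deletions flanking the cut on both sides without touching it made up 4.57% and 6.39% at Site 7, and 6.67% and 2.71% in the Site 9 libraries, and deletions on a single side, none touching it, made up 1.82% and 2.27% at Site 7 against 4.21% and 6.69% at Site 9.

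Among reads with exactly 2 deletions of which 1 reached the cut, the deletion at the cut had a median size of 6 and 8 bp at Site 7 and 10 bp in both Site 9 libraries, and its companion had a median size of 1 bp in every library. The companion was a 1-bp deletion in 63.7% and 66.0% of these reads at Site 7, and 55.7% and 52.2% in the Site 9 libraries. It lay to the left of the cut in 65.2% and 66.2% at Site 7 against 59.8% and 59.7% at Site 9. Counted over all member reads, a 1-bp deletion was present in 61.8% and 62.0% at Site 7, and 53.7% and 57.4% in the Site 9 libraries (61.9% ± 0.159 against 55.6% ± 2.63, SD, n = 2 each, exact permutation p = 0.333, adjusted 0.444). Reads in which every deletion was at least 5 bp made up 18.5% and 18.1% at Site 7 against 27.4% and 20.9% at Site 9.

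The retained stretches fell into a short and a long group. The shortest stretch in any allele was 2 bp, and no read in any library had 1 bp retained. Stretches of 2 to 5 bp were the shortest in 38.9% and 39.3% of member reads at Site 7, and 41.8% and 45.2% in the Site 9 libraries. Stretches over 40 bp were found in 40.9% and 42.2% at Site 7 against 39.8% and 41.7% at Site 9, with 8.68% to 11.1% at 6 to 10 bp, 1.97% to 5.03% at 11 to 20 bp and 2.42% to 4.89% at 21 to 40 bp over the 4 libraries. The median was 10 and 12 bp at Site 7, and 9 and 8 bp in the Site 9 libraries.

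The 2 groups differed in their deletions. The short group was taken here as reads whose shortest stretch was 2 to 10 bp. In these reads a 1-bp deletion was present in 30.6% and 33.8% at Site 7 against 23.4% and 26.7% at Site 9. Their deletions removed a median of 16 bp in both Site 7 libraries and 19 and 18 bp in the Site 9 libraries. With over 40 bp retained, a 1-bp deletion was present in 93.9% and 92.7% of reads at Site 7, and 95.2% and 95.5% in the Site 9 libraries, and the deletions together removed a median of only 6 and 8 bp at Site 7 against 9 and 11 bp at Site 9.

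Retained bases did not match the reference equally well. In stretches of 2 to 5 bp, 5.40% and 4.75% of the bases were mismatched at Site 7, and 7.38% and 10.4% in the Site 9 libraries. In stretches of 6 to 10 bp this was 15.4% and 15.5% at Site 7 against 21.7% and 12.01% at Site 9. In stretches over 40 bp it was 0.542% and 0.428% at Site 7, and 0.149% and 0.129% in the Site 9 libraries, below the 0.690% and 0.732% at Site 7 against 1.13% and 1.10% at Site 9 in the 20 bases outside the outer deletions. The class of 11 to 20 bp varied most, from 0.817% and 6.04% at Site 7 to 15.5% and 18.2% at Site 9.

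**Figure D2:**
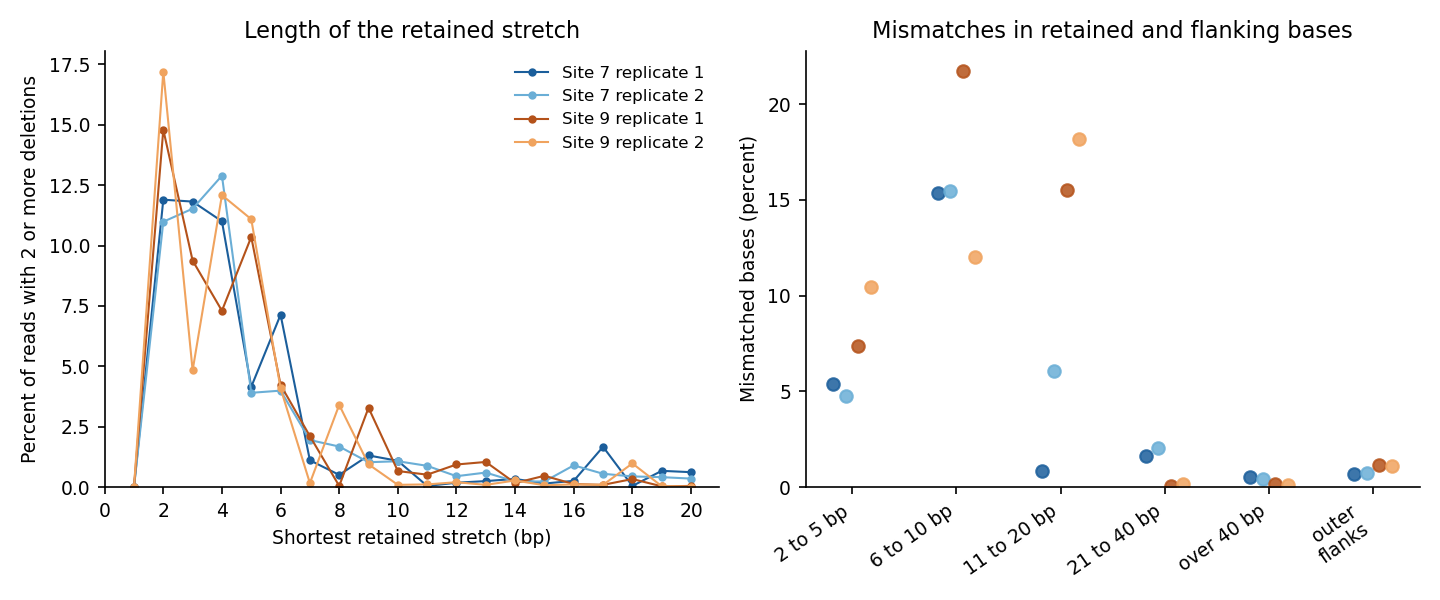
Left, percent of reads with 2 or more deletions by the length of their shortest retained stretch, from 1 to 20 bp, for each library. Right, percent of bases that differ from the reference in retained stretches of each length class and in the 20 bases outside the outer deletions, each dot being 1 library. No read had a stretch of 1 bp, and the 6 to 10 bp class had 12.01% to 21.7% mismatched bases against 0.129% to 0.542% over 40 bp.

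Counting each read once, a mismatch within 10 bp of a deletion was found in 30.6% and 28.1% of member reads at Site 7, and 35.3% and 38.0% in the Site 9 libraries. In reads with 1 deletion and no insertion it was found in 8.93% and 8.72% at Site 7 and 10.1% in both Site 9 libraries. Among members the share was highest where the shortest stretch was 6 to 10 bp at Site 7 and in replicate 1 of Site 9 (55.8%, 68.4% and 69.2%), whereas in replicate 2 of Site 9 it was highest at 2 to 5 bp (60.5%). It was 11.2% to 12.2% in all libraries where the stretch was over 40 bp.

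Each member read was then rewritten as 1 larger deletion with inserted bases, returning to the flanks any inserted base that matched the reference there. None could be written as 1 deletion without inserted bases. At most 5 inserted bases were needed for 3357 reads of the first Site 7 replicate (37.5%, 36.5 to 38.6%) and for 3613 of the second (36.1%, 35.1 to 37.0%). They sufficed for 2489 reads of the first Site 9 replicate (37.5%, 36.3 to 38.6%) and for 2535 of the second (45.9%, 44.6 to 47.2%). The sites overlapped in this share (36.8% ± 1.05 and 41.7% ± 5.94, SD, n = 2 each, exact permutation p = 0.667, also after adjustment). The level depended on which alleles were counted, at 11.3% and 6.45% with each pattern counted once, 64.5% and 72.6% with every deletion at least 2 bp, and 75.2% and 85.6% with every deletion within 20 bp of the cut. More than 40 inserted bases, which would have to repeat the reference over that length, were needed for 43.2% and 44.6% at Site 7 against 40.8% and 38.9% at Site 9.

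Short stretches could be placed in more ways than long ones. Stretches of 2 bp without mismatch could have been placed only once between the outer ends of the deletions in 66.8% and 55.3% of reads at Site 7, and 68.3% and 80.5% in the Site 9 libraries, and the sequence between those ends held on average 62.1% and 68.2% of all possible 2-base words at Site 7 against 72.0% and 52.6% at Site 9. For 3-bp stretches it held 19.2% to 27.6% of all words, for 4-bp stretches 4.46% to 7.87% and for 5-bp stretches 2.40% to 2.81%. From 7 bp upward every stretch without mismatch matched a single place in the whole amplicon.

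The alignments had more than 1 way of writing such reads. Reads were grouped by the number of new bases they would hold as 1 larger deletion across the cut, mismatches within 10 bp of a deletion included. With 1 new base, none of 18061, 18953, 11787 and 9843 reads in the 4 libraries was written as separate deletions, and all were written as 1 deletion with mismatches. With 2 new bases, separate deletions were used for 13.1% and 17.7% at Site 7, and 16.4% and 5.54% in the Site 9 libraries, and with 5 new bases for 31.1% and 27.6% at Site 7 against 14.6% and 41.9% at Site 9. At the same lengths a deletion with an insertion was written for 2.98% and 2.74% (2 bases) and 27.5% and 24.5% (5 bases) at Site 7, and for 7.90% and 10.9% and then 23.8% and 27.9% at Site 9. Reads with the same number of new bases by this count were therefore divided over 3 forms. A mismatch taken in also brings the matching bases between it and the deletion into the count. In the 9 + 10 bp allele of Site 9, 1 substitution raised it from 3 to 10. A deletion with a lone substitution nearby can thus count as several new bases, and the 3 forms need not be the same kind of allele.

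The member reads were also aligned again to the amplicon with a match score of 5, a mismatch score of -4, a gap extension penalty of 0.5 and free end gaps. With a gap opening penalty of 10, 8941 of 8942 and 10017 of 10021 member reads of Site 7 and all those of Site 9 kept separate gaps. The members were picked from an alignment whose settings are not known here. This setting may repeat them, so reads kept under it give no separate support for separate deletions. With a penalty of 20 these were kept in 57.1% and 58.5% of reads at Site 7, and 49.8% and 55.7% in the Site 9 libraries, and with a penalty of 30 in 39.2% and 42.0% at Site 7 against 36.5% and 39.8% at Site 9. The reads that lost them were almost all written with 1 deletion and no insertion, at 42.6%, 40.98%, 50.1% and 44.2% of member reads with a penalty of 20. No member could be written as 1 deletion without inserted bases. This form must therefore hold mismatches or leave bases unaligned at the free ends, and is not a clean single deletion. How often each was so, and how many of these reads had a deletion near a read end, was not counted.

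Where the larger deletion would hold 6 to 30 inserted bases, those bases were searched for in the amplicon. At Site 7, 39.7% of 1407 such reads in replicate 1 and 40.7% of 1781 in replicate 2 had them within the deleted span itself, and at Site 9 this was 20.3% of 1169 and 18.4% of 506. A copy elsewhere on the same strand was found in 6.397% and 7.02% at Site 7, and 7.96% and 0.198% in the Site 9 libraries. Only the reverse complement was found in 22.8% and 15.05% at Site 7 against 23.6% and 34.0% at Site 9, from 7, 45, 4 and 6 different junctions. No copy was found in 31.1%, 37.2%, 48.2% and 47.4%. For scale, the amplicon holds 5.52% of all 6-base words on a given strand at Site 7, and 4.81% at Site 9, and 0.0226% and 0.0190% of all 10-base words. Reads with a deletion and an insertion showed the reverse complement alone in 27.0%, 23.0%, 21.5% and 7.43%, so that for it the order of the 2 kinds of allele differed between libraries. They showed a copy on the same strand in 8.92%, 18.3%, 19.1% and 19.3%, more than member reads in every library. The member reads with such a copy came from only 1, 21, 3 and 1 different junctions. With mismatches beside the deletions taken in, as for the named alleles below, the reverse complement alone was found in 26.2%, 14.8%, 13.4% and 24.7% of member reads and in 15.2%, 20.04%, 18.9% and 10.3% of reads with a deletion and an insertion, which turned the order in the first replicate of each site. The share with a copy within the deleted span then fell to 29.3%, 32.6%, 13.9% and 9.15%.

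The pattern of each member was defined by the start and size of its deletions. There were 3774 patterns at Site 7 and 2219 at Site 9. Of these, 707 (18.7%) and 472 (21.3%) were found in both libraries of the site, against 41.4% and 50.6% of the deletions in reads with 1 deletion. The shared patterns held 54.0% and 42.7% of member reads at Site 7, and 38.2% and 36.0% in the Site 9 libraries, whereas shared single deletions held 99.4% and 97.2% of their reads at Site 7 against 94.9% and 96.1% at Site 9. Sharing also depends on the reads per pattern, which was not corrected for. At Site 7, 8942 and 10021 member reads were spread over 3774 patterns. There, 358384 and 373637 reads with 1 deletion were spread over 1295 different deletions. Abundant patterns were among those found once. Of the 37 patterns with at least 50 reads in replicate 1 of Site 7, 17 were not found in replicate 2, while none of the 8 such patterns of replicate 2 was missing from replicate 1. At Site 9, 21 of 28 in replicate 1 and 27 of 32 in replicate 2 were found in that library only.

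The parts of a pattern were looked for among reads with 1 deletion, with at least 10 reads in the same library. Both deletions of a pair occurred alone in 13.7% and 16.8% of the reads with exactly 2 deletions at Site 7, and 51.1% and 48.1% in the Site 9 libraries. Only 1 of them did in 77.0% and 78.97% at Site 7 against 42.3% and 41.7% at Site 9, and neither did in 9.29% and 4.25% at Site 7, and 6.59% and 10.2% in the Site 9 libraries. The sites are not alike in this count. A deletion far from the cut can occur alone only in reads without a deletion at the cut. Reads without a deletion within 20 bp of it numbered 3711 and 5653 at Site 7 against 154000 and 145857 at Site 9. The minimum of 10 reads was therefore harder to meet at Site 7. Its part in the contrast between the sites was not tested.

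The named alleles, which are the most abundant patterns and the most abundant of certain kinds, began at Site 7 with a pair that shared a 1-bp deletion of C at 92520179, 5 bases from the cut, where the C next to it would give the same read. With a 2-bp deletion at 92520183 to 92520184 and 3 bp retained (the 1 + 2 bp allele above) it had 404 reads in replicate 1 and 333 in replicate 2, or 0.0913% ± 0.0146 of aligned reads (SD, n = 2). With a 1-bp deletion at 92520184 and 4 bp retained (the 1 + 1 bp allele) it had 332 and 400 reads, or 0.0904% ± 0.00976. Their order differed between the replicates.

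Alone, the deletion of this C had 193 and 165 reads. Few reads of Site 7 were without another deletion within 20 bp of the cut, and it was found in 194 of 3905 of these (4.97%, 4.33 to 5.69%) in replicate 1 and in 167 of 5820 (2.87%, 2.47 to 3.33%) in replicate 2. It accompanied 1.04% (0.939 to 1.14%) and 0.896% (0.805 to 0.997%) of the reads with the 2-bp deletion, 0.452% (0.406 to 0.503%) and 0.572% (0.519 to 0.631%) of those with the 1-bp deletion, and 0.0154% and 0.0359% of 104014 and 100284 reads with another deletion at the cut that starts to the right of it. Both alleles could be written as a deletion of 5 bp from 92520180 to 92520184 with 2 or 3 inserted bases, and neither carried a mismatch.

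The other 3 most abundant patterns of Site 7 combined the 1-bp deletion at 92520184 with a 1-bp deletion close to an end of the read. The PCR primers stand at the ends of an amplicon, and their sequences were not used here, so a deletion there may lie in bases that came from a primer and not from the cells. The distant deletion lay at 92520098 in 94 and 92 reads (85 bp retained), at 92520103 in 70 and 101 reads (80 bp retained) and at 92520312 in 81 and 78 reads (127 bp retained). Written as 1 deletion, the first would need 85 inserted bases that repeat the reference without a mismatch.

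At Site 9 the most abundant pattern removed 12 bp from 92370122 to 92370133 and 3 bp from 92370136 to 92370138 and kept 2 bp, in 97 and 102 reads (0.0242% ± 0.00363, SD, n = 2). Its first deletion had 34 and 202 reads alone and its second had 0 in both libraries. Its most abundant read also carried the substitution C92370139T (reference base, mm9 position, read base) beside the second deletion. Taken in, this made a deletion of 18 bp with 3 inserted bases.

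The next pattern at Site 9 removed 3 bp from 92370121 to 92370123 and 5 bp from 92370126 to 92370130, in 66 and 94 reads. Its read carried G92370119C and C92370132A on the 2 outer sides. With these taken in, it was a deletion of 14 bp from 92370119 to 92370132 with 6 inserted bases, which had no copy in the amplicon.

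The pattern of 9 bp from 92370099 to 92370107 and 10 bp from 92370113 to 92370122, in 108 and 50 reads, had the substitution G92370094C to its left. With it taken in, the read was a deletion of 29 bp from 92370094 to 92370122 with 10 inserted bases, whose only copy in the amplicon lay at 92370084 to 92370093, directly beside the deletion. Read this way, the 10 bases stood in the read 2 times in a row.

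The 9 + 22 bp allele of Site 7 had 90 reads in replicate 1 and 0 in replicate 2, where a count of 0 allows a share of up to 0.000730%. It was the most abundant pattern at Site 7 in which no deletion reached the cut, and its 7 retained bases carried A92520182G. As 1 deletion of 38 bp from 92520170 to 92520207 across the cut it held 7 inserted bases, with a single copy on the same strand at 92520209 to 92520215, 1 base from the deletion.

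The 28 + 8 bp allele of Site 7, with 120 and 0 reads, was the most abundant there with deletions of at least 5 bp and carried T92520174G in its 6 retained bases. As 1 deletion of 42 bp from 92520145 to 92520186 it held 6 inserted bases. Their reverse complement lay once in the amplicon, at 92520189 to 92520194, 2 bases from the deletion. The 3 + 20 + 29 bp allele of Site 9, with 98 and 0 reads, was of the same form: as 1 deletion of 58 bp from 92370091 to 92370148 it held 6 inserted bases without mismatch to the 2 retained stretches, and their reverse complement lay once in the amplicon, at 92370156 to 92370161, 7 bases from the deletion. Its most abundant read also carried C92370081T, further to the left. With this substitution taken in, the read was a deletion of 68 bp from 92370081 to 92370148 with 16 inserted bases, which had no copy in the amplicon on either strand.

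Other abundant patterns were also found in 1 library each. At Site 7, 3 deletions of 3, 33 and 17 bp had 54 and 0 reads, and the 6 inserted bases of the corresponding larger deletion of 59 bp had no copy. At Site 9, deletions of 12 and 3 bp with 5 bp retained had 0 and 137 reads, and deletions of 1 bp at 92370117 and 92370120, which left the bases beside the cut in place, had 0 and 109 reads. A pattern of 1 bp at 92370121 and 11 bp from 92370164 to 92370174 had 0 and 123 reads with 42 bp retained. It was the most abundant at Site 9 with at least 10 bp retained, and as 1 deletion of 52 bp it would need 40 inserted bases in the reference order.

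**Figure D3:**
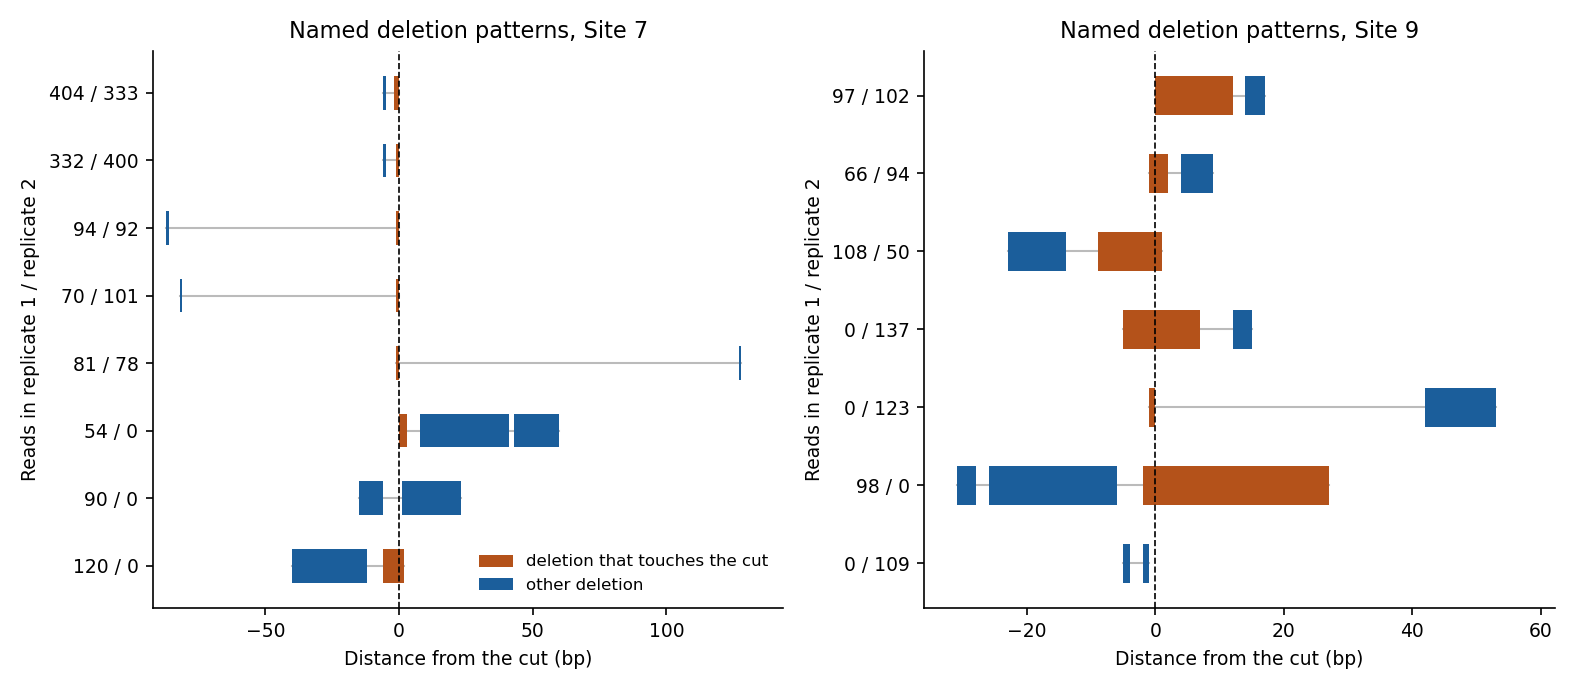
Position of the deletions of the named patterns relative to the cut (dashed line, in bp), with a grey line over the retained bases and the read counts of replicates 1 and 2 at the left. At each site the first 5 patterns are the most abundant, in order, and the others the most abundant of their kind; 5 of the 8 Site 7 patterns and 3 of the 7 Site 9 patterns were found in both libraries.

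Distant companions were compared with the same deletions in reads that had no deletion near the cut, within each library. A deletion more than 20 bp from the cut accompanied 1.34% and 1.48% of the reads with a deletion at the cut at Site 7 against 1.63% and 1.65% at Site 9. In reads without a deletion within 20 bp of the cut it was found in 0.970% (0.702 to 1.34%) and 1.10% (0.857 to 1.40%) at Site 7, from only 3711 and 5653 such reads, and in 1.32% and 1.35% at Site 9. Reads with a deletion at the cut were higher in 4 of 4 libraries, by 0.340 percentage points on average (SD 0.0477, n = 4). A larger deletion across the cut that is written in parts can count here as a deletion at the cut with a distant one. Reads without a deletion near the cut are not open to this, and its part in the difference was not tested. For distal deletions of 1 bp alone the mean difference was 0.126 points, also in the same direction in each library. An exact two-sided sign-flip permutation test over libraries gave p = 0.125, the smallest it can give.

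Most distant 1-bp deletions lay close to the ends of the reads. The 20 bases at each end made up 22.1% of the distal positions at Site 7, and 25.8% in the Site 9 libraries, but held 75.03% and 78.97% of the distal 1-bp deletions in reads with a deletion at the cut at Site 7 against 91.7% and 84.6% at Site 9. In this zone the intervals of their rate overlapped between reads with and without a deletion at the cut. It was 0.798 (0.769 to 0.828) against 0.808 (0.567 to 1.15) per 100 reads in replicate 1 of Site 7 and 0.940 (0.910 to 0.972) against 0.938 (0.718 to 1.22) in replicate 2. At Site 9 it was 1.17 (1.12 to 1.21) against 1.13 (1.08 to 1.19) in replicate 1 and 1.14 (1.09 to 1.19) against 1.20 (1.15 to 1.26) in replicate 2.

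Further from the read ends a few positions held most of the 1-bp deletions, and the rates over all positions were higher with a deletion at the cut. At Site 7 they were 0.265 (0.249 to 0.283) with and 0.0539 (0.0148 to 0.196) without a deletion at the cut in replicate 1, and 0.250 (0.235 to 0.267) and 0.106 (0.0487 to 0.231) in replicate 2. At Site 9 they were 0.105 (0.0923 to 0.1198) and 0.0344 (0.0263 to 0.0450) in replicate 1, and 0.208 (0.188 to 0.231) and 0.0782 (0.0651 to 0.0939) in replicate 2. These intervals did not overlap within a library. The 3 positions deleted most often held 577 of 935 and 467 of 917 of these deletions at Site 7 and 176 of 226 and 299 of 367 at Site 9. Without them the intervals overlapped in each library, with 0.102 (0.0916 to 0.113) against 0.0269 (0.00476 to 0.152) and 0.123 (0.112 to 0.135) against 0.0708 (0.0275 to 0.182) at Site 7. At Site 9 the rates were then 0.0233 (0.0176 to 0.0307) against 0.0234 (0.0169 to 0.0324), and 0.0386 (0.0305 to 0.0489) against 0.0302 (0.0225 to 0.0405). In replicate 1 of Site 9 leaving out base 92370074 was enough, since it held 146 of the 226. Leaving out 1 to 3 positions was therefore enough for the intervals to overlap in each library. The overlap cannot show that the difference came from these positions alone. They were picked as the most often deleted in the same reads, so leaving them out had to lower the rates. At Site 7 the remaining rates without a deletion at the cut rest on 1 and 4 deletions, and those with one were still higher. This split by position was made after the positions had been seen, and it was not tested over libraries.

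**Figure D4:**
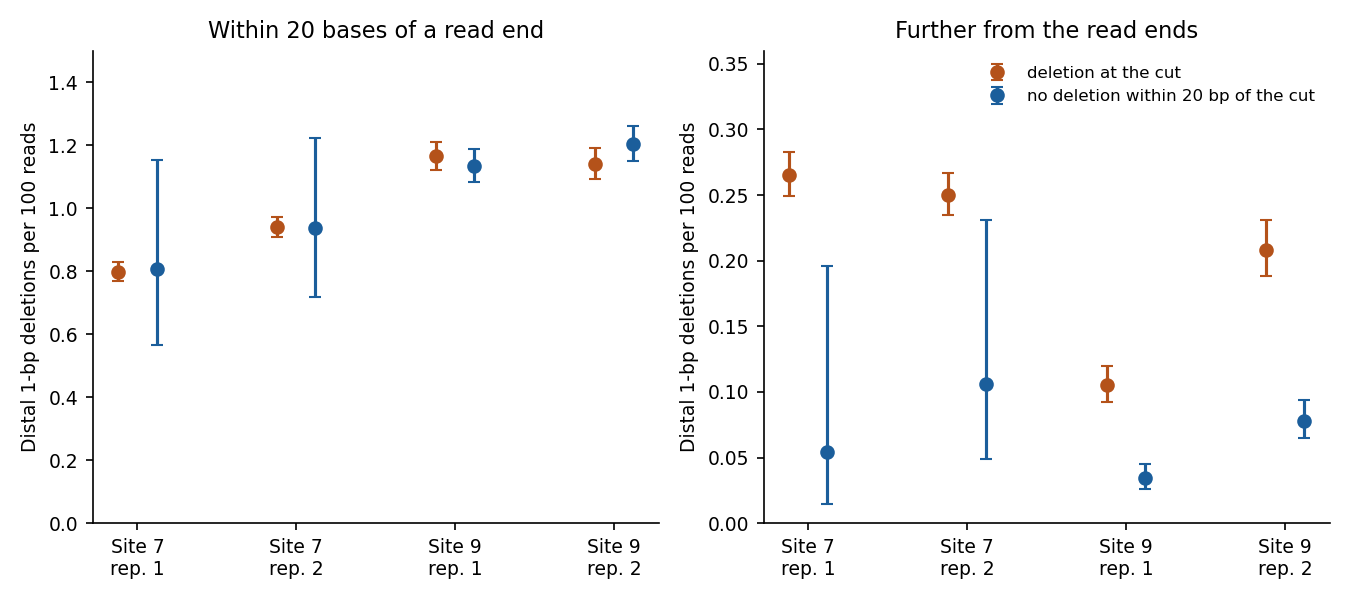
Distal 1-bp deletions per 100 reads, more than 20 bp from the cut, in reads with a deletion at the cut and in reads without a deletion within 20 bp of it, with 95% Wilson intervals. The paired intervals overlap within 20 bases of the read ends (left) and are separate further in (right, on a smaller scale) in all 4 libraries, where 3 positions a library hold 176 to 577 of the deletions plotted and the intervals overlap without them.

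Single positions near the ends had similar rates in both kinds of read. At Site 9, base 92370053 was deleted in 224 per 100000 reads with and 209 without a deletion at the cut in replicate 1, and in 203 and 222 in replicate 2, and base 92370049 in 202 and 209 and then 196 and 199. At Site 7, base 92520098, the distant deletion of the most abundant such pattern, was deleted in 122 and 108 per 100000 in replicate 1 and 132 and 159 in replicate 2, the values without a deletion at the cut resting on 4 and 9 reads. Away from the ends, base 92370074, the first of a run of 4 equal bases 47 bp from the cut of Site 9, was deleted in 67.9 and 3.25 per 100000 in replicate 1 and in 94.3 and 48.0 in replicate 2. Base 92520264, the first of a run of 5 equal bases 79 bp from the cut of Site 7, was deleted in 83.2 and 26.9 in replicate 1 and 48.3 and 17.7 in replicate 2, from a single read each without a deletion at the cut. The part of sequencing, PCR primers and alignment in these rates was not tested.

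**Figure D5:**
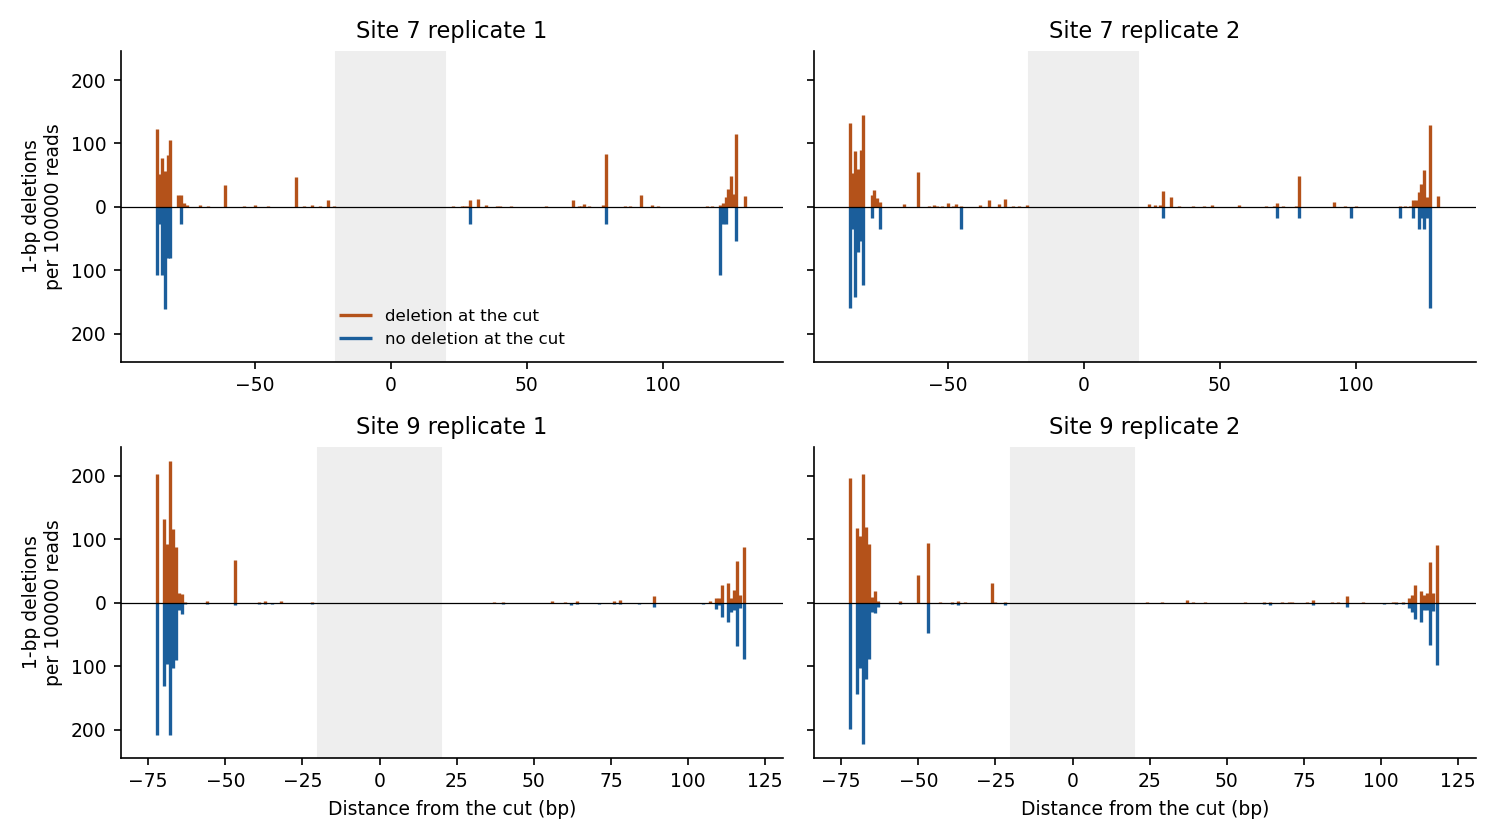
Rate of 1-bp deletions per 100000 reads at each position more than 20 bp from the cut, upward for reads with a deletion at the cut and downward for reads without a deletion within 20 bp of it (grey band left out), by distance from the cut in bp. The peaks stand at both read ends in all 4 libraries, with few positions between, and the Site 7 bars without a deletion at the cut rest on 3711 and 5653 reads.

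The exon of Prickle2 beside the Site 9 cut gave a further measure of position. A deletion removed at least 1 base of it in 38.9% and 35.5% of member reads, against 8.68% and 12.7% of reads with 1 deletion. The companions near the right end of the read also fall in this exon. The intron bases directly beside the exon, AC on the plus strand and therefore the GT of the splice donor, were hit in 26.1% and 26.6% of member reads and in 9.52% and 13.4% of reads with 1 deletion. This comparison was not tested, and members removed more bases (a median of 16 and 15 bp in all, against 8 bp in both libraries).

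The deposited columns describe members incompletely. The number of deleted bases in the tables was below the total of the gaps in every member row. It equalled the size of the deletion that reaches the cut, or 0 where none did, in 98.3% and 98.4% of the reads of Site 7, and in 99.1% and 99.4% of those of Site 9. In addition, 582 and 785 member reads at Site 7 (6.51% and 7.83%) and 277 and 208 at Site 9 (4.17% and 3.76%) were called unmodified. Among reads with 1 deletion and no insertion, 2.94% and 2.86% at Site 7, and 3.72% and 3.90% in the Site 9 libraries were called unmodified. Alleles seen in a single read made up 78.2% and 67.3% of member rows at Site 7 against 75.2% and 78.0% at Site 9, close to the 76.7%, 70.4%, 75.6% and 78.5% of rows with 1 deletion.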

How the data were processed

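E14 mESCs transfected with Cas9 and 1 guide were sequenced as amplicons at 2 sites with 2 libraries each. Per the labels, the authors trimmed the reads with Trim Galore 0.3.1, and their methods name CRISPResso as the aligner, with build mm9; its alignment settings are not given in the sources used here. The authors deposited the read count of each allele without normalization, and its percent of all aligned reads, which was used only to check the counts. The aligned pairs were parsed here in Python 3.11.15 with pandas 2.3.3, NumPy 2.4.6, SciPy 1.17.1 and Biopython 1.88, and the parser was tested on simulated data. Gap positions are printed as deposited, and whether a deletion reaches the cut was judged over all equivalent placements. Mismatches were searched for within 10 bp of a deletion, deletions over 20 bp from the cut were called distal, and up to 5 inserted bases were allowed when a read was rewritten. Sites were compared by exact two-sided permutation of libraries.

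Named patterns are the 5 with the highest mean share at each site and the most abundant with at least 10 bp retained, at least 3 deletions, no deletion reaching the cut, all deletions of at least 5 bp, or more than 5 inserted bases. The members, these rules and the tests were chosen with earlier results of these data known. Alternatives covered read minimums, counting of patterns, mismatches, deletion size, distance, retained length, placement, realignment and each library left out.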

Additional observations from a re-analysis of the deposited data

How the results depend on the processing

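The higher share of aligned reads at Site 7 kept its direction in 20 of 22 alternatives. It turned to -0.0153 percentage points among reads that the tables call modified, and to -0.430 as a share of deletion reads without insertion. The lower share at Site 7 of reads that 1 larger deletion with at most 5 inserted bases would give turned to 4.83 points (11.3% and 6.45%) when each pattern was counted once and to 1.86 without mismatches within 10 bp of a deletion. Counted once per pattern, the share reaching the cut turned to -0.127 points and the share with a 1-bp deletion to -13.9 points (72.7% at Site 7, 86.6% at Site 9). The cause was not tested. The median retained length moved from 11 bp at Site 7, and 8.5 bp in the Site 9 libraries to 4 bp at both, with every deletion at least 2 bp and also with every deletion within 20 bp of the cut. Patterns found in both libraries gave 1.13% and 0.545% of reads, and leaving out 1-bp deletions within 20 bases of the read ends 1.56% and 0.911%; both were chosen after seeing the data. Without that kind of deletion, the share that at most 5 inserted bases would explain as 1 deletion was 55.7% at Site 7 against 67.4% at Site 9. Leaving out each library gave 0.781 to 0.970 points for the share of reads, -9.07 to -0.664 for the rewritten share, 1.49 to 3.75 for the share reaching the cut, 4.43 to 8.14 for 1-bp deletions and 0.324 to 0.354 for distal deletions. With a limit of 10 bp in place of 20, the distal difference was 0.583 points (exact sign-flip p = 0.250) and replicate 1 of Site 7 had -0.0284. The replicate block, pairing libraries by number, left the difference of 0.875 points with p = 0.5 (exact, 2 pairs) and changed no call; deviations of same-numbered libraries correlated at 0.58, and the labels name no shared batch. With 2 libraries a site no test could reach 0.05, and the few Site 7 reads without a deletion limit the comparison there.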
